A study of Mus musculus with 6 samples.

Results

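The genes described here are 9 regulators of alternative splicing that are known from epithelial or neural cells: Ptbp1, Ptbp2, Esrp1, Esrp2, Rbfox2, Nova1, Elavl2, Elavl3 and Elavl4. They were chosen by name, and a probe set was taken as theirs where the platform annotation gave it exactly 1 gene symbol. This rule found all 9 genes, with 25 of the 45037 probe sets that are not controls, and the genes were read from a fit over 18193 genes. The study sorted cells of OLV2-1, 1 mouse embryonic stem cell line that carries the fluorescent protein Venus knocked into the Oct4 (Pou5f1) locus, so that every group shares this reporter. The undifferentiated group (ESC) was kept as stem cells and sorted as positive for Venus and, per the sorting protocol, for CD31 (Pecam1), a surface protein of naive stem cells. The EpiSC-like group, named after epiblast stem cells, was taken on day 3 of SFEBq, a floating culture without serum in which stem cell aggregates turn neural, and was Venus-positive and Pecam1-negative. The Day7_Oct4-Venus+ group was sorted from the aggregates on day 7 as positive for Venus, with no Pecam1 gate named. Each group had 2 arrays, 6 in all, and nothing in the labels says that they came from separate cultures, so p-values here cover no more than the spread between such arrays, which may be technical.

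Splicing regulators bind short motifs in a pre-mRNA and decide which exons are kept. PTBP1 represses many neural exons in dividing cells, among them an exon of its own paralog gene Ptbp2, whose loss sends the Ptbp2 transcript to decay; neural precursors make PTBP2 as PTBP1 declines. ESRP1 and ESRP2 direct the epithelial splicing programme, as in the epithelial isoform of Fgfr2, RBFOX2 acts widely in muscle, brain and stem cells, NOVA1 acts in neurons, and ELAVL2, ELAVL3 and ELAVL4 are the neuronal Hu proteins, which bind AU-rich RNA and also stabilise messages. The arrays read transcripts near their 3′ end, so they give the total level of each gene and not the splicing of its targets.

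All values are the deposited signal intensities, which are linear and had been scaled to the same trimmed mean on every array. Across the 6 arrays the median signal ran from 63.99 to 76.3. The 3 arrays numbered replicate 2 had a higher top signal than the 3 numbered replicate 1, 63296 or more against 36841 or less, so for the main members the difference is also given within each of these 2 sets of arrays. The mean of the poly-A spike-in controls was 76.9 or less on the second EpiSC-like and the second ESC array but 591 to 826 elsewhere. For actin, the 3′ probe set exceeded the 5′ one by 0.71 and 0.94 log2 units at day 7, against 0.46 to 0.58 in the other groups. For Gapdh the same difference was -0.12 and -0.18 at day 7, within the range of the other 4 arrays, -0.36 to 0.0054. Day 7 aggregates were dissociated with EDTA alone, whereas the other groups were trypsinised, rested for 1 h and stained, so that handling and day 7 cannot be told apart in any value below. Pou5f1 itself read 6244 to 14055 over all 6 arrays. Pecam1, the gene of the other sorting marker, read 401 and 177 in EpiSC-like cells, 767 and 488 at day 7, and 728 and 343 in ESC, so that ESC overlapped both other groups and day 7 lay above EpiSC-like cells (log2 difference 1.15). Neither was called in any comparison.

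None of the 9 genes passed the test in any of the 3 comparisons. The test was limma on log2(signal + 16), with an adjusted p under 0.05 by Benjamini-Hochberg over all genes as the call. For EpiSC-like cells against ESC it called 0 of 9 members where 1.9% of all genes were called, and 4 of 9 were at an unadjusted p under 0.05 (16% of all genes): Ptbp2, Nova1, Esrp1 and Esrp2. For day 7 against ESC it called 0 of 9 (1.04% of all genes), and at an unadjusted p under 0.05 stood 2 of 9, Ptbp2 and Nova1 (18.3%). For day 7 against EpiSC-like cells it called 0 of 9 (0.0385%), and at an unadjusted p under 0.05 stood 1 of 9, Esrp1 (14.1%). With 2 arrays a group, a missed threshold does not show that a level was equal, so 95% intervals are given with the members' differences from ESC.

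Groups can also be compared by whether their arrays overlap. Both EpiSC-like arrays lay above both ESC arrays for Ptbp2, Esrp1 and Nova1, 3 of 9 members against 25% of all genes, and below them for Esrp2 and Elavl3, 2 of 9 against 19.9%. Both day 7 arrays lay above both ESC arrays for 6 of 9 members (26.6% of all genes), namely Ptbp2, Esrp1, Rbfox2, Nova1, Elavl2 and Elavl4, and below them for 1 of 9, Esrp2 (23.5%). Against EpiSC-like cells, day 7 lay above for Rbfox2 and Elavl4, 2 of 9 (21.3%), and below for Ptbp2, Esrp1 and Nova1, 3 of 9 (24.5%). The median log2 difference over the members was 0.12, 0.26 and 0.21 in the 3 comparisons, in the order given above, against 0.025, 0.015 and -0.023 over all genes.

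**Figure D1:**
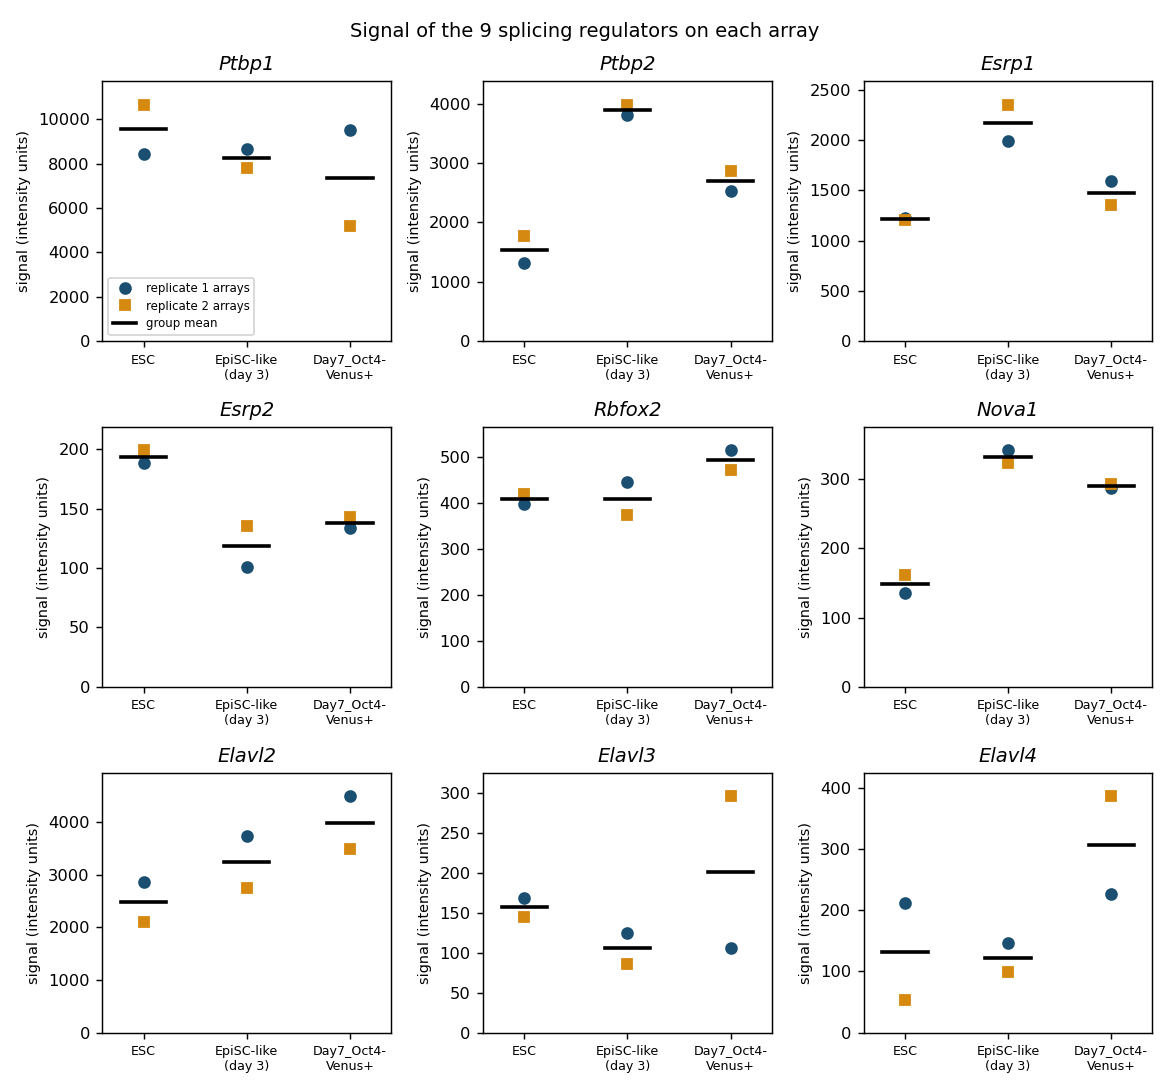
Signal (linear intensity units, axes from 0) of each member's representing probe set on the 6 arrays, by group in the order of the culture. Circles and squares are the arrays numbered replicate 1 and 2, and black bars are group means; Ptbp2, Nova1 and Esrp1 are highest in the EpiSC-like arrays, and Elavl2 has its lowest mean in ESC and its highest at day 7.

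Ptbp1, the repressor of neural exons, was bright on every array. It read 8436 and 10656 in ESC, 8642 and 7821 in EpiSC-like cells, and 9510.1 and 5199 at day 7. The groups overlapped throughout, and the widest spread lay within day 7. The log2 difference was -0.21 ± 0.34 (SE, 95% interval -1.01 to 0.60, limma adjusted p = 0.846) for EpiSC-like cells against ESC. At day 7 it was -0.43 ± 0.34 (-1.24 to 0.38, adjusted p = 0.555). Without day 7 replicate 2 the day 7 difference from ESC was 0.0044, so its sign rested on that array. The other 2 probe sets of Ptbp1 gave differences from ESC of -0.22 and -0.31 in EpiSC-like cells and of -0.40 and -0.12 at day 7, all of the same sign as the first. A decline of Ptbp1 by more than about 2-fold, a log2 difference under -1.01 in EpiSC-like cells, lay outside the interval of the main fit only. With arrays centred on their median the same difference was lower and its SE larger, at -0.36 ± 0.36. At day 7 the interval of the main fit reached -1.24, so a decline of that size is not excluded.

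Ptbp2, the neural paralog, had the largest log2 difference of the 9 in EpiSC-like cells. It read 1316 and 1769 in ESC, 3818 and 3987 in EpiSC-like cells, and 2534 and 2867 at day 7. The 3 groups did not overlap, with EpiSC-like cells highest, day 7 between and ESC lowest. EpiSC-like cells averaged 3902 ± 119.7 and ESC 1542 ± 320.5 (SD, n = 2 each), a log2 difference of 1.35 ± 0.25 (95% interval 0.75 to 1.94), or 2.54-fold. The limma adjusted p was 0.0566, just over the threshold. The difference was 1.53 between the replicate 1 arrays and 1.17 between the replicate 2 arrays. It passed when genes under the 25th percentile of mean level were left out (adjusted p = 0.0286), when genes under the median were left out (0.0111) and with a pseudocount of 64 (0.0203), and not in any other setting tried, where the adjusted p ran up to 0.249. Of those other settings, a pseudocount of 1 and the replicate block called 0 genes in all.

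At day 7 Ptbp2 averaged 2700 ± 235.6 (SD, n = 2), a log2 difference of 0.81 ± 0.25 (0.22 to 1.41, adjusted p = 0.168) against ESC and -0.53 ± 0.25 (-1.13 to 0.066, adjusted p = 0.410) against EpiSC-like cells. The second probe set of Ptbp2, which is dimmer, read 73.8 and 87.0 in ESC, 97.9 and 206 in EpiSC-like cells, and 118 and 119 at day 7. Its differences from ESC were 0.73 in EpiSC-like cells and 0.48 at day 7, smaller and of the same sign as those of the first.

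Nova1, a neuronal KH-domain splicing factor, followed the same order of groups. It read 136 and 161 in ESC, 341 and 323 in EpiSC-like cells, and 287 and 292 at day 7, so that the 3 groups did not overlap. EpiSC-like cells averaged 332 ± 12.7 and ESC 148 ± 17.7 (SD, n = 2 each), a log2 difference of 1.09 ± 0.22 (95% interval 0.55 to 1.62, limma adjusted p = 0.0706), or 2.12-fold on the scale with the pseudocount. It was 1.23 and 0.94 in the replicate 1 and replicate 2 arrays. Day 7 averaged 289.7 ± 3.73, a difference of 0.90 ± 0.22 from ESC (0.36 to 1.43, adjusted p = 0.113) and of -0.19 ± 0.22 from EpiSC-like cells (-0.72 to 0.35, adjusted p = 0.765). With the 25th percentile filter, the median filter and the pseudocount of 64, the first difference passed (adjusted p = 0.0372, 0.0157 and 0.0302), and with the median filter the day 7 difference from ESC passed as well (0.0298). In the other settings the adjusted p of the first ran from 0.0850 to 0.262. The second probe set of Nova1 was near the floor of the array, at 2.82 and 3.18 in ESC, 22.2 and 4.08 in EpiSC-like cells, and 32.6 and 15.995 at day 7, so it carries little weight.

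The stretches just upstream of these 2 genes are shown because theirs were the 2 largest log2 differences in EpiSC-like cells. Each is the 250 bases before the annotated start in RefSeq on GRCm38.p6, 5′ to 3′ on the strand of the gene, in lower case with matches to GGGCGG or its reverse CCGCCC, the core of a GC box, in capitals. The Ptbp2 stretch is chr3:119783389-119783638, minus strand, and that of Nova1 is chr12:46818768-46819017, minus strand.
Ptbp2: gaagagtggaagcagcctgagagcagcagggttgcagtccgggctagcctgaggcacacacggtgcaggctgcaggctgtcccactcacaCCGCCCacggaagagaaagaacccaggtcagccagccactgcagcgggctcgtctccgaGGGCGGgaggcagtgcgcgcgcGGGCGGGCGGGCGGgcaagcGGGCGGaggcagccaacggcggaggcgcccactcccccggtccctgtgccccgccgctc
Nova1: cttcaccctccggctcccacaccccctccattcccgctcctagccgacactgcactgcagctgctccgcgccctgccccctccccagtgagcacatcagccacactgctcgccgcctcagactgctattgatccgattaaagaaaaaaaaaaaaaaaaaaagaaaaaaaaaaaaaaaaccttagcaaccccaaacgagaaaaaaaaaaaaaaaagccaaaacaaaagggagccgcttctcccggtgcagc
The Ptbp2 stretch was 72.4% G or C and held 6 matches to the GC box core, counting both strands and overlapping matches. The Nova1 stretch carried long runs of A and held 0 matches. Of 32851 promoters of the same length in the table, 32.7% held at least 1 match and 0.886% held 6 or more. Of the other motifs searched on both strands, the E-box CAGGTG (in 17.2% of all promoters), CCAAT (33.8%), TATAAA (12.4%) and the octamer ATGCAAAT, 0 matches lay in either stretch. Among the members 6 had an entry, with 14 promoters in all. Elavl3 held CAGGTG once, and 2 of the 4 Elavl4 promoters held it once each. These are matches of letters only and say nothing of binding.

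Esrp1 and Esrp2, the epithelial splicing regulators, went opposite ways by value, with neither called. Esrp1 read 1229.5 and 1207 in ESC, 1993 and 2355 in EpiSC-like cells, and 1591 and 1351 at day 7. The groups did not overlap, and EpiSC-like cells were highest. The mean was 2174 ± 256 in EpiSC-like cells and 1218 ± 15.9 in ESC (SD, n = 2 each), a log2 difference of 0.82 ± 0.23 (95% interval 0.26 to 1.38, limma adjusted p = 0.153). It was 0.69 and 0.96 in the replicate 1 and replicate 2 arrays, and passed, among the settings tried, only with genes under the median left out (adjusted p = 0.0489). Day 7 differed from ESC by 0.26 ± 0.23 (-0.29 to 0.82, adjusted p = 0.604) and from EpiSC-like cells by -0.56 ± 0.23 (-1.12 to -0.0011, adjusted p = 0.353). Esrp1 has 1 probe set on the array, so no second one can check it.

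Esrp2 read 189 and 199 in ESC, 101 and 136 in EpiSC-like cells, and 133 and 143 at day 7. Both ESC arrays lay above the other 4, and day 7 overlapped EpiSC-like cells. The log2 difference was -0.66 ± 0.24 (95% interval -1.23 to -0.083, limma adjusted p = 0.247) between EpiSC-like cells and ESC. It was -0.44 ± 0.24 (-1.02 to 0.13, adjusted p = 0.384) between day 7 and ESC. A second probe set, of the kind marked as possibly shared with other transcripts, read 73.6 and 65.7 in EpiSC-like cells and 96.7 and 39.2 in ESC, and gave 0.12 and 0.53 for the same 2 differences. The 2 probe sets of Esrp2 thus disagreed in sign, and with both averaged the day 7 difference was 0.041. The opposite signs of Esrp1 and Esrp2 rest on 1 probe set each, and the difference between the genes was not tested.

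Epithelial markers stood beside the Esrp genes as follows. All 20 of the list had a probe set, and 0 of 20 were called in any of the 3 comparisons. In limma 6 of 20 stood at an unadjusted p under 0.05 for EpiSC-like cells against ESC (16% of all genes). It was 1 of 20 for day 7 against ESC (18.3%) and 7 of 20 for day 7 against EpiSC-like cells (14.1%). Both EpiSC-like arrays lay below both ESC arrays for 8 of 20 (19.9% of all genes) and above them for 4 of 20 (25%). The summed signal, to which bright genes add most, was 25997 and 27253 in EpiSC-like cells, 26221 and 31321 at day 7, and 27696 and 29354 in ESC. Cdh1 (E-cadherin), the defining member, read 7926 to 10576 over all 6 arrays, and none of the 20 was at 0. In sorted bulk samples, more cells of a type and more RNA per cell cannot be told apart.

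Rbfox2, a splicing factor with broad expression, had the smallest difference of the 9 in EpiSC-like cells. It read 398 and 419 in ESC, 445 and 373 in EpiSC-like cells, and 514 and 470.2 at day 7. The log2 difference of EpiSC-like cells from ESC was -0.0029 ± 0.23, with an interval from -0.55 to 0.54 (limma adjusted p = 0.997). On this probe set day 7 lay above both other groups, by 0.26 ± 0.23 against ESC (-0.29 to 0.80, adjusted p = 0.603) and by 0.26 ± 0.23 against EpiSC-like cells (-0.28 to 0.81, adjusted p = 0.668). The 4 probe sets of Rbfox2 did not share a sign: for EpiSC-like cells against ESC they gave -0.0029, 0.19, 0.44 and -0.62, the last on a dim probe set.

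Elavl2, a neuronal Hu gene that is also made in germ cells, had its lowest mean in ESC, 2479 ± 543, and its highest at day 7, 3991 ± 716 (SD, n = 2 each). It read 2863 and 2095 in ESC, 3741 and 2760.1 in EpiSC-like cells, and 4497 and 3486 at day 7, with replicate 1 above replicate 2 in every group. The log2 difference of day 7 from ESC was 0.69 ± 0.29 (95% interval -0.013 to 1.39, limma adjusted p = 0.281), and it was 0.65 and 0.73 in the replicate 1 and replicate 2 arrays. EpiSC-like cells differed from ESC by 0.39 ± 0.29 (-0.31 to 1.09, adjusted p = 0.600), at 0.38 and 0.40 in the 2 sets. The other 2 bright probe sets of Elavl2 gave 0.69 and 1.09 for day 7 against ESC, with no overlap of the groups. The remaining 2, which are dim, gave 0.47 and -0.35.

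Elavl3 and Elavl4 were dim, and their intervals were the widest of the 9. Elavl3 read 169 and 145 in ESC, 125 and 86.0 in EpiSC-like cells, and 106 and 296 at day 7. The first day 7 array was below both ESC arrays and the second above them. Its log2 differences were -0.52 ± 0.45 (95% interval -1.61 to 0.56, limma adjusted p = 0.660) between EpiSC-like cells and ESC and 0.18 ± 0.45 (-0.91 to 1.27, adjusted p = 0.878) between day 7 and ESC. Without day 7 replicate 2 the second was -0.50. Day 7 differed from EpiSC-like cells by 0.70 ± 0.45 (-0.39 to 1.79, adjusted p = 0.554). The other 2 probe sets of Elavl3 had the same signs, at -0.66 and -0.16 for EpiSC-like cells and 0.23 and 0.58 for day 7, each against ESC, and at 0.89 and 0.74 for day 7 against EpiSC-like cells, where both groups stood apart.

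Elavl4 read 212 and 52.5 in ESC, 146 and 98.5 in EpiSC-like cells, and 227 and 386 at day 7. EpiSC-like cells differed from ESC by 0.12 ± 0.58 (95% interval -1.27 to 1.52, limma adjusted p = 0.956). For this difference the other 2 probe sets gave -0.36, with no overlap of the groups, and 0.060. Day 7 lay above both other groups, though its first array exceeded ESC replicate 1 only slightly. The log2 difference of day 7 was 1.32 ± 0.58 from ESC (95% interval -0.071 to 2.71, limma adjusted p = 0.295) and 1.197 ± 0.58 from EpiSC-like cells (-0.20 to 2.59, adjusted p = 0.426). From ESC it was 0.089 in the replicate 1 arrays and 2.55 in the replicate 2 arrays, and with 1 array left out it ran from 0.45 (without ESC replicate 2) to 2.19 (without ESC replicate 1). Its other 2 probe sets gave 0.74 and 2.31 for day 7 against ESC. The second of these read 148 and 567 at day 7 and 83.8 and 23.1 in ESC.

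Neuronal markers differed between the 2 day 7 arrays in the same direction as Elavl3 and Elavl4. Of 23 neuron markers, all with a probe set and none at 0, 21 were higher on day 7 replicate 2 than on replicate 1, as were 54.9% of all genes. The summed signal of the list was 6821 and 13595 at day 7, 9334 and 7943 in EpiSC-like cells, and 14667 and 19381 in ESC, where Stmn2, a gene of neuronal microtubules, made up 8317 and 13364. Dcx (doublecortin), a marker of young neurons that was also chosen with its values known, read 78.3 and 604 at day 7, 16.9 and 19.6 in EpiSC-like cells, and 2.57 and 33.4 in ESC. The markers of primitive and visceral endoderm, 15 of 16 of them higher on day 7 replicate 2, summed to 10507 and 26993 at day 7, 5239 and 6893 in EpiSC-like cells, and 8898 and 16678 in ESC. The part of either cell type in the values of Elavl3 and Elavl4 was not tested.

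**Figure D2:**
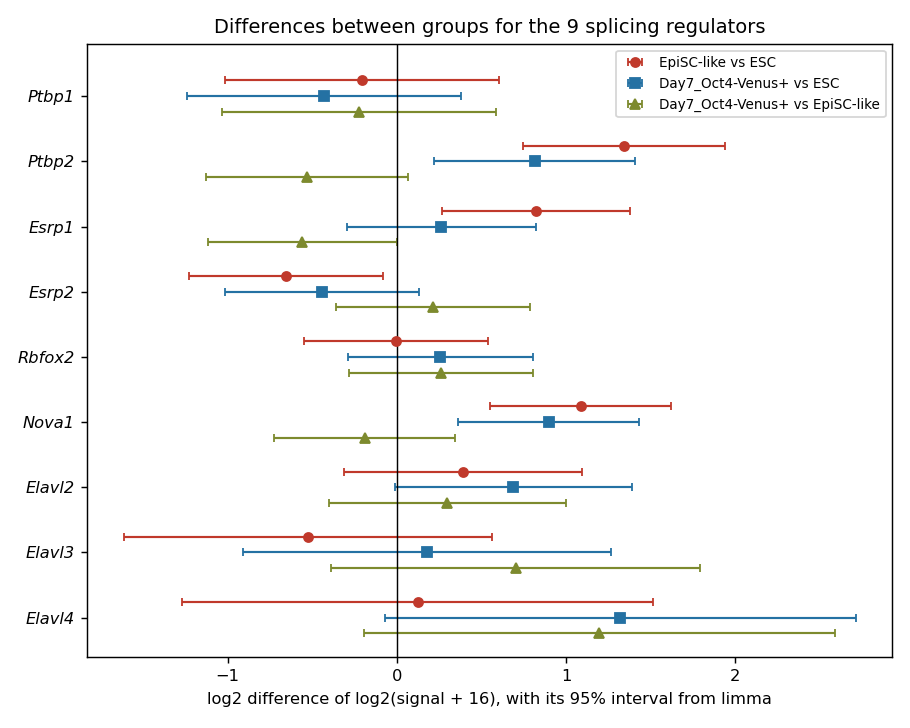
Log2 difference of log2(signal + 16) for each member in the 3 comparisons, with the 95% interval from limma as horizontal bars. The intervals of Ptbp2, Nova1, Esrp1 and Esrp2 for EpiSC-like cells against ESC lie to 1 side of 0, and those of Elavl3 and Elavl4 are the widest.

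**Figure D3:**
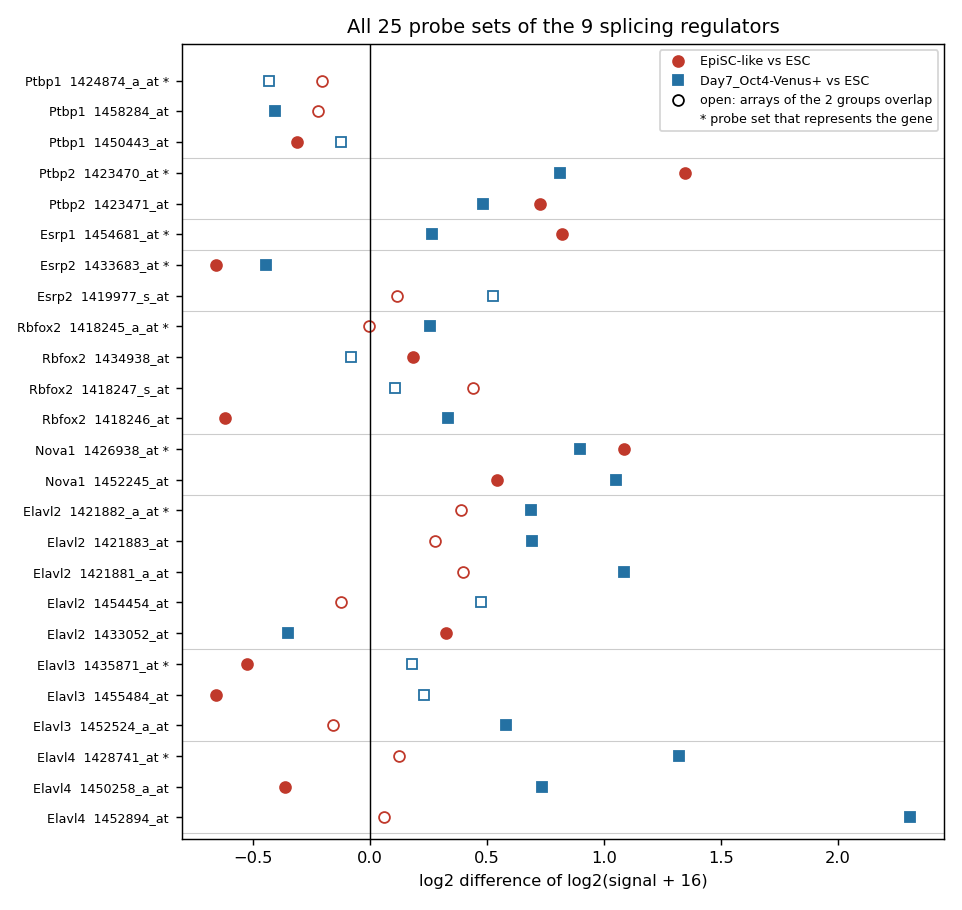
Log2 difference from ESC for all 25 probe sets of the members, as circles for EpiSC-like cells and squares for day 7; open symbols are probe sets on which the arrays of the 2 groups overlap, and a star marks the probe set that represents its gene. The probe sets of Ptbp1, Ptbp2 and Nova1 keep 1 sign within and across both comparisons. Those of Esrp2, Rbfox2, Elavl2 and Elavl4 differ in sign within a comparison, and those of Elavl3 differ in sign between the comparisons.

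Other members of the same families gave 6 genes of 7 with a probe set, and 0 of 6 were called in any comparison. Ptbp3, the third PTB paralog, read 1747 and 1727 in ESC, 1523 and 1247 in EpiSC-like cells, and 2773 and 2512 at day 7, so that the 3 groups did not overlap. Day 7 differed from EpiSC-like cells by 0.93 ± 0.23 and from ESC by 0.60 ± 0.23 (limma adjusted p = 0.167 and 0.244), and its other 2 probe sets had the same signs. Day 7 was highest for Ptbp3 and EpiSC-like cells for Ptbp2, while Ptbp1 overlapped between all groups. Elavl1 (HuR), the Hu protein made in most cells, differed by 0.14 ± 0.25 in EpiSC-like cells and -0.31 ± 0.25 at day 7 from ESC (adjusted p = 0.867 and 0.580). Its 6 probe sets disagreed at day 7: the other 5 gave 0.19, 1.13, 1.28, 0.93 and 0.42 against ESC, with no overlap for 3 of them, so the arrays settle no direction for Elavl1. Rbfox3 (NeuN), a marker of mature neurons, differed from ESC by 0.076 in EpiSC-like cells and 0.54 at day 7, while its other 2 probe sets gave -0.87 and -0.42 in EpiSC-like cells and -0.33 and -0.030 at day 7. Nova2 differed by -0.52 and 0.037, from a dim probe set.

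Of 25 other tissue-regulated splicing factors 24 had a probe set. None was called, with 8, 6 and 4 of 24 at an unadjusted p under 0.05 for EpiSC-like cells against ESC, day 7 against ESC and day 7 against EpiSC-like cells. The shares over all genes were 16%, 18.3% and 14.1%. Their median log2 differences were 0.27, 0.18 and 0.086 in the same order. The next 4 were chosen after their values were seen. Mbnl1, a muscleblind factor of differentiated cells, read 601 and 567 in EpiSC-like cells and 295 and 229 in ESC (1.12 ± 0.25, limma adjusted p = 0.0897). Celf2 read 953 and 661 in EpiSC-like cells and 378 and 239 in ESC (1.35 ± 0.32, adjusted p = 0.104). Srrm4 (nSR100), which promotes neuronal microexons, read 139 and 90.1 in EpiSC-like cells and 33.5 and 33.9 in ESC (1.37 ± 0.35, adjusted p = 0.121). Rbm47, an epithelial RNA-binding protein, read 795 and 510.4 in EpiSC-like cells and 1787 and 1402 in ESC (-1.29 ± 0.30, adjusted p = 0.0962).

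Among transcription factors known to act on Esrp or on neuronal RNA-binding protein genes, 14 of 15 had a probe set. In EpiSC-like cells against ESC 1 was called higher and 1 lower, where 1.9% of all genes were called in either direction. In the other comparisons 0 were called. Snai2 (Slug), a repressor of epithelial genes, rose to 195 and 116 in EpiSC-like cells, against 33.8 and 37.1 in ESC (1.70 ± 0.29, limma adjusted p = 0.0481), a call that held in 2 of 15 alternative settings. Klf4 fell to 1413 and 450.0 in EpiSC-like cells, against 8870.0 and 7622 in ESC (-3.34 ± 0.55, adjusted p = 0.0448), and this call held in 5 of 16. Zeb1 and Zeb2, repressors of Esrp1 in carcinoma cells, differed by 0.58 ± 0.22 and 2.37 ± 0.53 in EpiSC-like cells (adjusted p = 0.270 and 0.0896), with Zeb2 at 167 and 171 in EpiSC-like cells and 29.5 and 12.2 in ESC. Both EpiSC-like arrays were above both ESC arrays for Zeb1, for Zeb2 and for Esrp1, as for 25% of all genes. Whether these levels are linked was not tested. Grhl2, an activator of epithelial genes, read 904 and 550.3 at day 7 and 1749 and 1624 in ESC (-1.24 ± 0.34, adjusted p = 0.134). Rest, the repressor of neuronal genes, read 4451 and 3375 in EpiSC-like cells, 3842 and 3437 at day 7, and 5389 and 5510 in ESC (-0.49 ± 0.24 and -0.58 ± 0.24, adjusted p = 0.399 and 0.275).

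Genes that carry exons regulated by these proteins were read only as total transcript. Of 10 genes with ESRP-regulated exons 0 were called in any comparison; Fgfr2, chosen after its values were seen, read 586 and 688 in EpiSC-like cells and 376 and 444 in ESC (0.62 ± 0.23, limma adjusted p = 0.263). Of 18 measured genes with PTBP, NOVA or RBFOX regulated neural exons, EpiSC-like cells against ESC had 1 higher and 1 lower, day 7 against ESC had 0 higher and 1 lower, and day 7 against EpiSC-like cells had 0. Nrcam, a neuronal adhesion protein, rose to 491 and 328 in EpiSC-like cells, against 58.4 and 30.6 in ESC (2.83 ± 0.36, adjusted p = 0.0270), a call that held in 4 of 15 alternatives. Cltb, a clathrin light chain with a neuronal exon, fell to 149 and 150.1 in EpiSC-like cells, against 824 and 860.5 in ESC (-2.38 ± 0.24, adjusted p = 0.0164). At day 7 it stood at 109 and 144 (-2.60 ± 0.24 from ESC, adjusted p = 0.0291).

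The stage of the cells stood beside these values as follows. Against ESC 1.9% of all genes were called in EpiSC-like cells and 1.04% at day 7, in either direction. Of 15 neural progenitor markers 4 were called higher in EpiSC-like cells and 4 at day 7, each against ESC, with medians of 0.89 and 1.104. Fabp7 and Sox1 were among the 4 both times. Of 23 neuron markers 1 was called higher in EpiSC-like cells (Nsg2) and 2 lower (Stmn2 and Mapt), and at day 7 2 were higher (Nsg2 and Nhlh2) and 1 lower (Stmn2). Of 15 naive pluripotency markers 6 were called lower in EpiSC-like cells and 1 at day 7. For day 7 against EpiSC-like cells 0 of them were called. Both day 7 arrays lay above both EpiSC-like arrays for 14 of the 15 (21.3% of all genes) and below for 0 (24.5%), with a median of 1.14. Of 18 mesenchymal markers 3 were called higher in EpiSC-like cells, Tagln, Col1a2 and Cdh11, and 0 at day 7. The summed signal of that list went the other way, at 14297 and 11308 in EpiSC-like cells and 18695 and 19439.9 in ESC. Blood and endothelial markers summed to 766 to 1028 over all 6 arrays, with Runx1 the 1 of 12 called, lower in EpiSC-like cells.

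Genes whose pattern over the 6 arrays was most like that of a member were listed for the 3 members whose group means ranged over at least 1 log2 unit, by the distance between mean-centred log2 values, among genes at or above the median level. Nearest to Ptbp2 were Commd3 (distance 0.21), Zfp612 (0.29) and Bpgm, an enzyme of red cell glycolysis (0.32). Commd3 read 1637 and 1832 in EpiSC-like cells and 535 and 779 in ESC. Nearest to Nova1 were Arhgap42 (0.24), Dennd5b (0.28) and Ppp1r26 (0.28). Nearest to Elavl4, and farther away, were Retreg1 (0.58), Mpzl1 (0.60) and Mavs (0.61). With 6 arrays and 18193 genes, such neighbours are a description and no more.

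**Figure D4:**
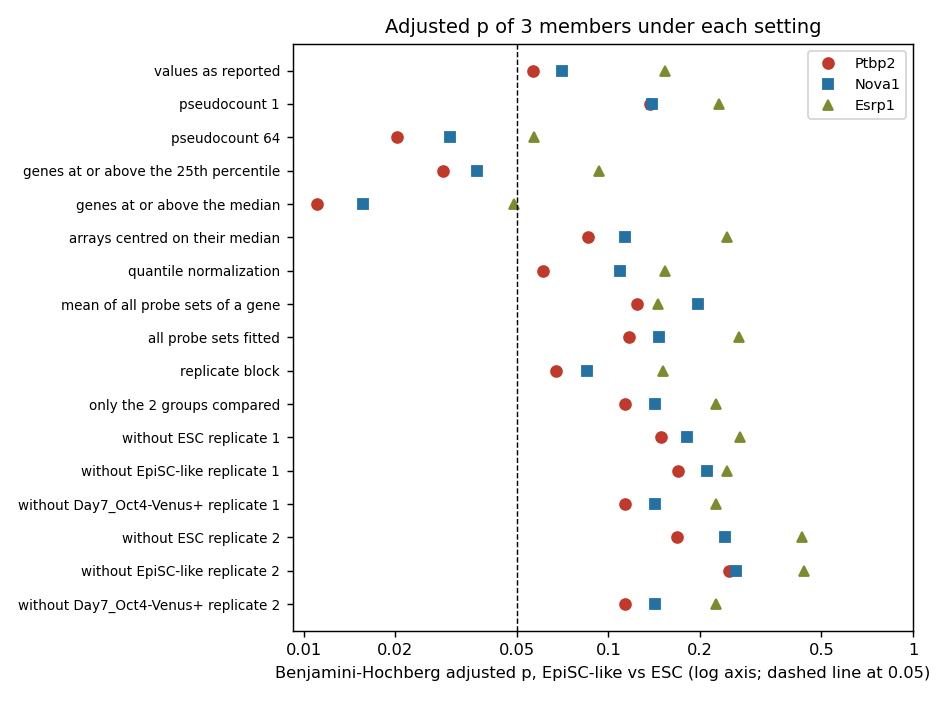
Adjusted p (log axis) of Ptbp2, Nova1 and Esrp1 for EpiSC-like cells against ESC, with values as reported in the top row and 1 alternative setting in each row below; the dashed line marks 0.05. Ptbp2 and Nova1 pass in 3 of the 16 alternatives and Esrp1 in 1, and none of them passes when an array is left out. Fits with 1 array left out called at most 63 of 18193 genes. A pseudocount of 1 and the replicate block called 0.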

How the data were processed

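Biotin-labelled RNA from 100 ng total RNA per sample was hybridised to Affymetrix 3′ arrays, per the labels' protocols. The authors deposited 1 signal intensity, on a linear scale, for each probe set and array. Affymetrix Expression Console (version 1) is named, per the submitters' processing notes; its algorithm and the genome build are not given in the sources used here. The trimmed means (2% off each end) show that arrays had been scaled alike before deposition. Detection calls were not used here, and the number of arrays limits the precision.

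Of 45101 probe sets, 64 controls were left out. Of the rest, 34945 had 1 gene symbol and 932 several in the platform annotation; each gene was read from its probe set with the highest mean log2 signal. limma 3.58.1 (R 4.3.3) was fitted to log2(signal + 16) of all 6 arrays with 3 group means, no block and no filter, with 3 residual degrees of freedom; differences are ± SE. The fit was tested on simulated data. Such differences understate the change of dim genes. Named are all members, the sorting genes, called genes of the lists, up to 4 uncalled genes each of the family and transcription factor lists, and nearest patterns; Cdh1, as a defining marker, and the genes marked in the text are exceptions. The members and lists were chosen with earlier results of these data known. Alternatives were 2 pseudocounts, 2 filters, 2 scalings, the probe set rule, the fit over all probe sets, a replicate block, pairwise fits and leaving out each array.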

Additional observations from a re-analysis of the deposited data

How the results depend on the processing

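Under 16 alternative settings the 27 member differences gave 423 values, since the 3 members under the median of all genes have no value where genes under it are left out. Of these, 402 kept their sign and their side of the threshold, 8 newly passed and 13 changed sign. No member passed in the main fit, so in settings that called 0 genes every member had to stay on its side. The count of 402 is therefore no measure of stability. For EpiSC-like cells against ESC the number of members called was 2 of 9 with a pseudocount of 64, 2 of 9 with genes under the 25th percentile left out and 3 of 6 with genes under the median left out, where 3.69%, 4.92% and 8.07% of all genes tested were called. For day 7 against ESC it was 1 of 6 with genes under the median left out (9.27% of all genes). In every other setting, and in all settings for day 7 against EpiSC-like cells, it was 0. Leaving out any 1 array gave 0 members called in each comparison, but 14 of these 18 fits called 0 genes at all and the others at most 63, so this says nothing about the members. The 2 filters test fewer genes, and the pseudocount of 64 puts less weight on dim genes. The SE fell with them as well. For Ptbp2 in EpiSC-like cells against ESC it was 0.25 in the main fit. It was 0.24 with the 25th percentile filter, 0.22 with the median filter and 0.19 with the pseudocount of 64. The sign changes are all of uncalled differences, which follows from the main fit calling no member. With arrays centred on their median, Elavl4 stood at -0.026 (EpiSC-like against ESC) and Elavl3 at -0.034 (day 7 against ESC). This centring also moved the median of all genes by value, to -0.13 for EpiSC-like cells and -0.20 for day 7 against ESC, from 0.025 and 0.015. With all probe sets of a gene averaged, Rbfox2 stood at 0.0014 and Elavl4 at -0.060 (EpiSC-like against ESC), Esrp2 at 0.041 (day 7 against ESC) and Nova1 at 0.16 (day 7 against EpiSC-like). With 1 array left out, the differences from ESC ran from -0.12 to 0.12 for Rbfox2 and from -0.74 to 0.99 for Elavl4 in EpiSC-like cells, and from -0.86 to 0.0044 for Ptbp1 and from -0.50 to 0.86 for Elavl3 at day 7. Ptbp1 ran from -0.66 to 0.21 for day 7 against EpiSC-like cells. The cause was not tested. The labels do not say whether the replicate numbers pair the samples. Deviations of same-numbered arrays from their group means correlated across genes at 0.28 for EpiSC-like cells and ESC. For day 7 they correlated at 0.079 with ESC and 0.097 with EpiSC-like cells. The mean of the hybridization controls was 16553 or more on the replicate 2 arrays and 10498 or less on the replicate 1 arrays. A shared set of same-numbered arrays therefore cannot be set aside, and the main fit holds no block for it. With the replicate block 0 members were called in each comparison, and 0 genes in all. A pseudocount of 1 also called 0 genes in all, so that the calls of genes other than the members depend on the pseudocount. For EpiSC-like cells against ESC the named calls held in 10 of 16 alternatives for Cltb, 11 of 16 for Fabp7, 10 of 15 for Sox1, 8 of 15 for Nsg2, 7 of 16 for Stmn2, 5 of 16 for Klf4, 4 of 15 each for Nrcam, Mapt and Runx1, 3 of 15 each for Tagln and Col1a2, 2 of 15 for Snai2 and 0 of 14 for Cdh11. At day 7 they held in 4 to 7 alternatives for Cltb, Fabp7, Nsg2, Stmn2, Nhlh2 and Sox1.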

Other observations

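Of 23 hnRNP genes with a probe set, proteins that package pre-mRNA and include the wider family of PTBP1, 0 were called in any comparison, with median log2 differences of 0.052 for EpiSC-like cells against ESC and 0.053 for day 7 against ESC. At an unadjusted p under 0.05 stood 2, 1 and 2 of the 23 in limma for EpiSC-like cells against ESC, day 7 against ESC and day 7 against EpiSC-like cells. Of all genes 16%, 18.3% and 14.1% did so. Of 14 SR genes, whose proteins promote exon inclusion, 0 were called as well. Of these, 12 of 14 values were above 0 for EpiSC-like cells against ESC, with a median of 0.27, against 52.3% of all genes above 0. For day 7 it was 9 of 14 against ESC (51.3% of all genes) and 4 of 14 against EpiSC-like cells (47.7%). Of the hnRNP genes 16, 13 and 12 of 23 were above 0 in the 3 comparisons. At an unadjusted p under 0.05 in limma stood 0, 1 and 0 of the 14, beside the same shares of all genes.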
